A study of Mus musculus with 2 samples.

Results

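Transcripts of the transforming growth factor beta (TGF-beta) ligands, their receptors and the proteins that store the ligands were described across the cells of the infarcted and the sham-operated mouse heart. The 10 genes were taken from a fixed list. They were the 3 ligands Tgfb1, Tgfb2 and Tgfb3, the 3 receptors Tgfbr1, Tgfbr2 and Tgfbr3, and the 4 latent TGF-beta binding proteins Ltbp1, Ltbp2, Ltbp3 and Ltbp4. All 10 were among the 21745 genes listed for both libraries. The hearts were those of wild type C57BL6/J males, 8 to 10 weeks old, taken 14 days after surgery. Single cells were profiled by Drop-seq, a droplet method that counts each captured mRNA molecule by a unique molecular identifier (UMI) near its 3′ end. The MI library held cells of 1 heart whose left anterior descending coronary artery had been tied off (myocardial infarction). The sham library held pooled cells of 4 hearts that had the same operation with the suture left loose. With 1 library per group, no comparison between MI and sham had a replicate check, and no p-value was computed. The intervals given are exact 95% intervals that cover counting error only.

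TGF-beta ligands are secreted in a latent form, in which the mature dimer stays wrapped in its own propeptide. The latent binding proteins Ltbp1, Ltbp3 and Ltbp4 can bind this complex covalently and tether it to fibrillin and fibronectin fibers, whereas Ltbp2 shares their structure but does not bind latent TGF-beta. Integrins, thrombospondin and proteases release the ligand. It then binds the type II receptor Tgfbr2, which phosphorylates the type I receptor Tgfbr1, which in turn phosphorylates Smad2 and Smad3. Tgfbr3, or betaglycan, is a co-receptor without kinase activity that presents Tgfb2 in particular. In the infarcted heart the pathway is best known for turning fibroblasts into matrix-producing, contractile cells.

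On GRCm38 (mm10), GENCODE vM21 places all 10 as protein-coding genes. Tgfb1 lies at chr7:25687002-25705077, Tgfb2 at chr1:186622792-186705989 and Tgfb3 at chr12:86056745-86079041. Tgfbr1 lies at chr4:47353222-47414931, Tgfbr2 at chr9:116084293-116175360 and Tgfbr3 at chr5:107106570-107289629. Ltbp1 lies at chr17:75005568-75392512, Ltbp2 at chr12:84783212-84876532, Ltbp3 at chr19:5740904-5758532 and Ltbp4 at chr7:27305136-27337692. Tgfb2, Tgfb3, Tgfbr2, Tgfbr3, Ltbp2 and Ltbp4 are on the minus strand and the rest on the plus strand.

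Cells were placed in classes by marker genes that do not include any of the 10. The MI library gave 8294 cells and the sham library 5971 after filtering, and 94.0% and 96.3% of them entered a class. Fibroblast-like cells numbered 2884 in MI and 1788 in sham, macrophage/monocyte-like cells 3713 and 1409, and endothelial-like cells 468 and 2139. Mural-like (pericyte and smooth muscle) cells numbered 162 and 110, and mesothelial-like cells 202 and 82. The MI cells were deeper. The median MI fibroblast-like cell held 5281.5 UMIs against 1492.5 in sham, the median macrophage/monocyte-like cell 1722 against 1368, and the median endothelial-like cell 3349 against 1297. Levels are therefore given as CPM, the UMIs of a gene scaled to 1e6 UMIs of the class,, which is a share of the RNA captured and not an amount per cell. Since each molecule is counted once near its 3′ end, CPM was not divided by gene length.

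Fibroblast transcripts were also counted in cells of other classes, more so in MI, and the source of this RNA was not tested. The 12 fibroblast markers summed to 31364 CPM in fibroblast-like cells of MI, to 1276 CPM in its macrophage/monocyte-like cells and to 1368 CPM in its endothelial-like cells. In sham the same sums were 13818, 196 and 380 CPM. In the 243 lymphocyte-like cells of MI (T/NK or B cell markers), which are not a known source of Ltbp2, Tgfb3 stood at 27.3 CPM (13.6 to 48.9) and Ltbp2 at 29.8 CPM (15.4 to 52.1). For each gene, the level that a class would show if its fibroblast marker RNA came with the rest of the RNA of fibroblast-like cells in its own library is called the fibroblast proportion below.

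**Figure D1:**
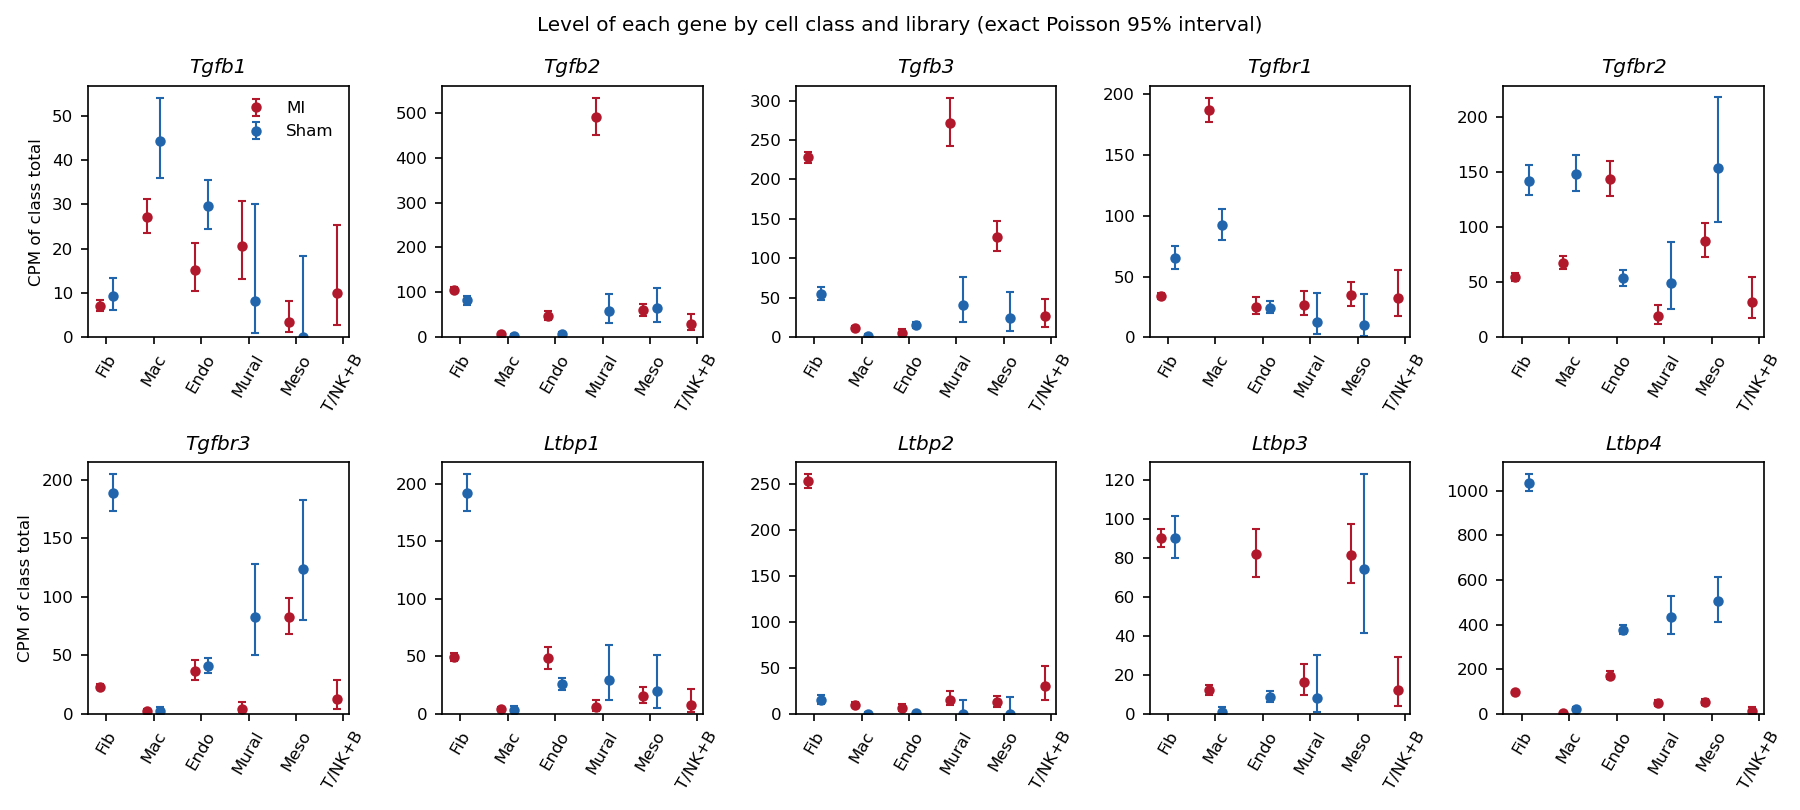
CPM of each of the 10 genes (vertical axis, linear from 0) in 5 cell classes of the MI library (red) and the sham library (blue), and in lymphocyte-like cells (T/NK+B) of MI. Points are sums over the cells of a class and bars are exact Poisson 95% intervals; in fibroblast-like cells Tgfb3 and Ltbp2 stood higher in MI, and Tgfbr3, Ltbp1 and Ltbp4 higher in sham.

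The 3 ligands differed between the libraries in different ways. Tgfb3 was the ligand with the larger excess in MI fibroblast-like cells, Tgfb2 was within 2-fold between the libraries there but more than 2-fold higher in MI mural-like and endothelial-like cells, and Tgfb1 was higher in sham in macrophage/monocyte-like and endothelial-like cells. Tgfb1, the isoform made by most immune cells and platelets, stood at 27.1 CPM (23.5 to 31.1) in the macrophage/monocyte-like class of MI and at 44.3 CPM (35.9 to 54.0) in that of sham. The log2 ratio of MI over sham was -0.71 (-1.06 to -0.34). In endothelial-like cells Tgfb1 stood at 15.1 CPM in MI and 29.7 CPM in sham, which gave a log2 ratio of -0.97 (-1.57 to -0.40). Little of it was in fibroblast-like cells of either library, 7.17 CPM in MI (6.0 to 8.5) and 9.28 CPM in sham (6.2 to 13.4), and these intervals overlapped.

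Tgfb2, the ligand that needs the co-receptor Tgfbr3 for efficient binding, was found in fibroblast-like cells at 106 CPM in MI (101 to 111) and 82.2 CPM in sham (72.3 to 93.1). That is a log2 ratio of 0.37 (0.18 to 0.57), under the 2-fold mark used here. In mural-like cells Tgfb2 stood at 491 CPM in MI (451 to 533) and 58.1 CPM in sham (31.8 to 97.5), for a log2 ratio of 3.08 (2.32 to 3.96). Among MI classes the mural-like level was the highest, and its interval lay apart from that of fibroblast-like cells, the next in order. The class of these MI mural-like cells was less clear, with 8848 CPM of fibroblast markers and 4630 CPM of mural markers. In endothelial-like cells Tgfb2 stood at 47.7 CPM in MI and 7.79 CPM in sham, which gave a log2 ratio of 2.61 (2.02 to 3.24). The fibroblast proportion for Tgfb2 in MI endothelial-like cells was 4.63 CPM, so that the measured level (39.0 to 57.8) lay above it. The lymphocyte-like cells of MI held 29.8 CPM of Tgfb2 (15.4 to 52.1), an interval that overlapped the endothelial-like one. The source of the Tgfb2 RNA in these 2 classes was not tested. In macrophage/monocyte-like cells of MI Tgfb2 stood at 6.68 CPM against a fibroblast proportion of 4.32 CPM.

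Tgfb3 stood at 228 CPM in MI fibroblast-like cells (221 to 235) and at 55.0 CPM in sham (47.0 to 64.0), for a log2 ratio of 2.05 (1.83 to 2.28). In thinned counts, in which every cell is cut to 500 UMIs so that depth is equal, 9.78% of MI fibroblast-like cells had a Tgfb3 UMI and 3.08% of sham ones. In T/NK-like cells of MI the thinned share was 0.725%, which is 1 of 138 cells, with median depths of 5281.5 and 1233.5 UMIs before thinning. Before thinning, the shares of fibroblast-like cells were 59.0% and 8.61%. Mural-like cells held 272 CPM in MI and 41.5 CPM in sham, which gave a log2 ratio of 2.71 (1.81 to 3.78), and mesothelial-like cells 127 and 24.8 CPM, for a log2 ratio of 2.36 (1.11 to 4.00). The endothelial-like cells ran the other way, with 5.97 CPM in MI and 15.6 CPM in sham, which gave a log2 ratio of -1.39 (-2.37 to -0.51). Among macrophage/monocyte-like cells Tgfb3 stood at 12.2 CPM in MI (9.8 to 14.9) and at 1.37 CPM in sham, and the fibroblast proportions were 9.27 and 0.78 CPM.

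The receptors were lower in MI fibroblast-like cells as a share of RNA, and the type I and type II receptors diverged in macrophage/monocyte-like cells. Tgfbr1, the type I kinase, stood at 34.0 CPM in MI fibroblast-like cells (31.3 to 36.8) and 65.3 CPM in sham (56.5 to 75.1), for a log2 ratio of -0.94 (-1.18 to -0.70). Within the macrophage/monocyte-like class it stood at 187 CPM in MI (177 to 197) and 92.2 CPM in sham (79.9 to 106), for a log2 ratio of 1.02 (0.81 to 1.24). The macrophage/monocyte-like class held the highest Tgfbr1 level of every class with at least 50 cells in both libraries, and its interval lay apart from the next. Endothelial-like cells showed 25.2 and 24.4 CPM, with overlapping intervals.

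Tgfbr2, the ligand-binding type II kinase, stood at 54.9 CPM in MI fibroblast-like cells and 142 CPM in sham, which gave a log2 ratio of -1.37 (-1.54 to -1.21). In macrophage/monocyte-like cells it stood at 67.4 CPM in MI and 148 CPM in sham, which gave a log2 ratio of -1.14 (-1.34 to -0.93). Within this class Tgfbr2 exceeded Tgfbr1 in sham, and Tgfbr1 exceeded Tgfbr2 in MI. Endothelial-like cells ran against both, with 144 CPM in MI (128 to 160) and 53.8 CPM in sham (46.8 to 61.5), for a log2 ratio of 1.42 (1.16 to 1.67). In sham the highest level was that of the 75 lymphatic endothelial-like cells, with 340 CPM (245 to 460), and the 32 such cells of MI were too few to compare.

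Tgfbr3 showed the lowest ratio of the 3 receptors in fibroblast-like and mural-like cells. It stood at 23.4 CPM in MI fibroblast-like cells (21.2 to 25.7) and 189 CPM in sham (173 to 205), for a log2 ratio of -3.01 (-3.20 to -2.83). In mural-like cells it stood at 4.30 CPM in MI and 83.1 CPM in sham, from 5 and 20 UMIs, for a log2 ratio of -4.27 (-6.04 to -2.82). Mesothelial-like cells held 82.7 and 124 CPM and endothelial-like cells 36.7 and 40.7 CPM, with overlapping intervals in both classes. After thinning to 500 UMIs, 1.39% of fibroblast-like cells in MI and 8.22% in sham had a Tgfbr3 UMI, against 0.0539% of MI macrophage/monocyte-like cells (2 of 3713, 0.00652% to 0.194%). The share in MI T/NK-like cells, 1.45%, rests on 2 of 138 cells and has an interval of 0.176% to 5.14%. Median depths before thinning were 5281.5 and 1492.5 UMIs in the fibroblast-like cells of MI and sham, 1722 in the macrophage/monocyte-like and 1233.5 in the T/NK-like cells of MI.

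A lower share of RNA was not always a lower number of molecules per cell. MI fibroblast-like cells held 6188 UMIs on average and sham ones 1688. Per cell, Tgfbr1 averaged 0.21 UMIs in MI and 0.11 in sham, and Tgfbr2 0.34 and 0.24, which is the opposite order to their CPM. Tgfbr3 averaged 0.145 UMIs per cell in MI and 0.318 in sham, and Ltbp4 0.597 and 1.75, the same order as their CPM. Ltbp1 was nearly even per cell, with 0.305 and 0.324 UMIs. More RNA per cell and deeper sampling of each cell cannot be told apart in these counts.

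**Figure D2:**
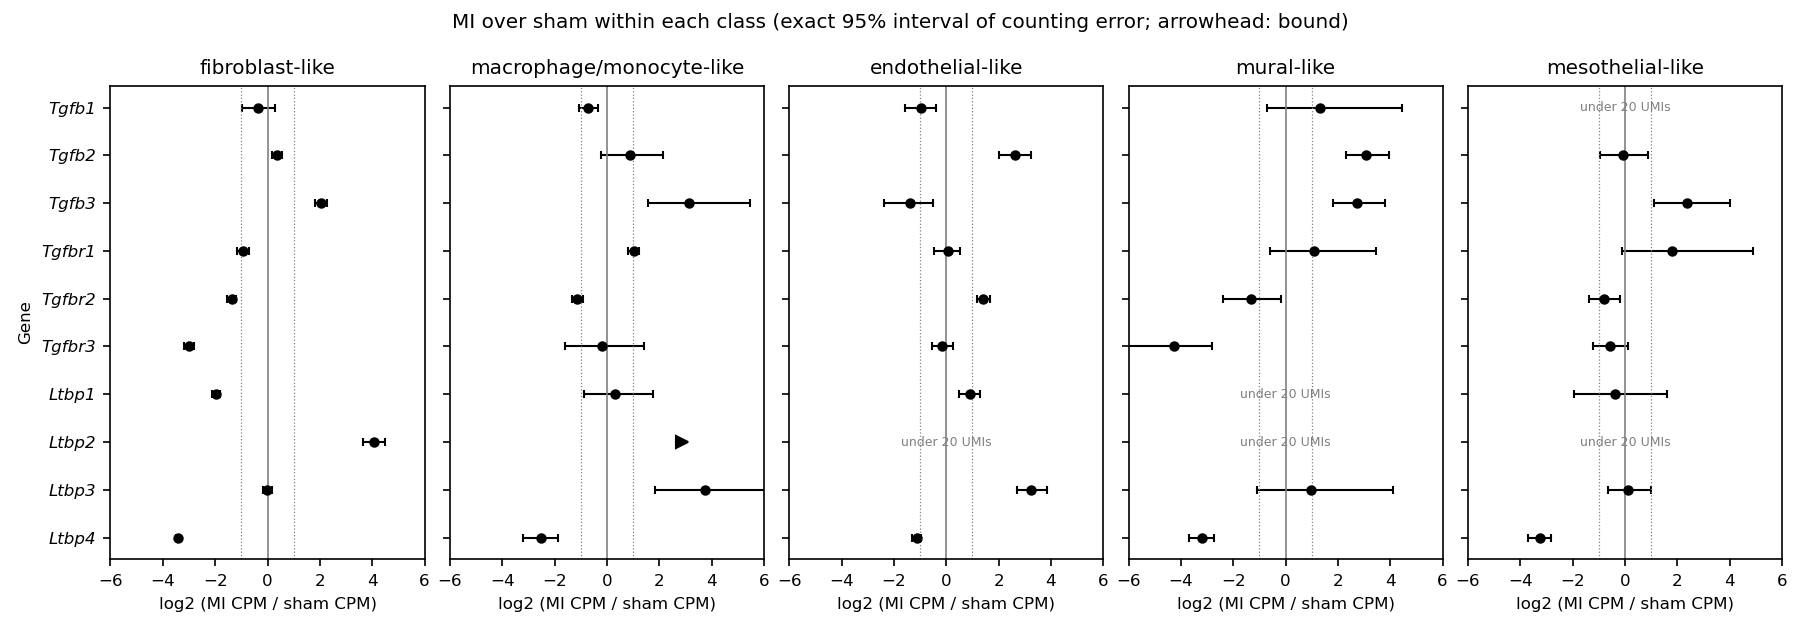
Log2 ratio of MI CPM over sham CPM (horizontal axis) for each of the 10 genes in 5 cell classes, with exact 95% intervals of counting error. Dotted lines mark 2-fold, an arrowhead marks a bound from a library with 0 UMIs, intervals may run past the axis, and genes with under 20 UMIs in a class are not plotted; Ltbp4 lay left of 0 in all 5 classes, and Tgfbr2 lay left of 0 in 4 classes and right of it in endothelial-like cells.

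Of the latent binding proteins, Ltbp2 and Ltbp4 showed the largest contrasts of the set in fibroblast-like cells, with Ltbp2 higher and Ltbp4 lower in MI. Ltbp2 stood at 253 CPM in MI fibroblast-like cells (245 to 260) and 15.2 CPM in sham (11.2 to 20.3), from 4510 and 46 UMIs, for a log2 ratio of 4.05 (3.63 to 4.50). Thinned to 500 UMIs, 11.9% of MI cells of this class had an Ltbp2 UMI and 0.783% of sham cells, against 1.45% of MI T/NK-like cells. The macrophage/monocyte-like class held 0 Ltbp2 UMIs in sham and 9.88 CPM in MI (7.8 to 12.4), so that its log2 ratio was at least 2.85 with the sham count set to 3 over the class. The fibroblast proportion in those MI cells was 10.3 CPM, which the interval held. In MI endothelial-like cells Ltbp2 stood at 6.43 CPM (3.5 to 10.8), below the fibroblast proportion of 11.0 CPM. The level in MI fibroblast-like cells thus stood apart from that of each other MI class with at least 50 cells.

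Ltbp4 had the highest CPM of the 10 genes in sham fibroblast-like, endothelial-like, mural-like and mesothelial-like cells, and ran against Ltbp2. It stood at 96.5 CPM in MI fibroblast-like cells (92.0 to 101) and at 1036 CPM in sham (1000 to 1073), for a log2 ratio of -3.43 (-3.51 to -3.34). In endothelial-like cells it stood at 172 CPM in MI and 378 CPM in sham, which gave a log2 ratio of -1.14 (-1.30 to -0.97). With each cell weighted alike that ratio was -0.89, past the 2-fold mark no longer. Mural-like cells held 47.3 CPM in MI and 436 CPM in sham, which gave a log2 ratio of -3.21 (-3.70 to -2.72), and mesothelial-like cells 52.8 and 506 CPM, for a log2 ratio of -3.26 (-3.71 to -2.82). Among macrophage/monocyte-like cells the levels were 4.14 CPM in MI (2.8 to 5.9) and 23.7 CPM in sham (17.7 to 31.1). The fibroblast proportions were 3.92 and 14.7 CPM, of which the MI one lay within the interval. After thinning, 5.58% of fibroblast-like cells in MI and 39.0% in sham had an Ltbp4 UMI, against 1.45% of MI T/NK-like cells.

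The sequence upstream of the annotated start is shown for Ltbp2 and Ltbp4, because they were the 2 members with the highest and the lowest ratio in fibroblast-like cells, and for Tgfb2, because its excess in MI lay in mural-like and endothelial-like cells. The windows come from RefSeq on GRCm38.p6, end just upstream of the GENCODE vM21 gene start and are printed 5′ to 3′ on its own strand. Capitals mark CAGAC, the SMAD binding element as a bare motif, or its reverse complement. Ltbp2, minus strand, chr12:84876533-84876741; Ltbp4, minus strand, chr7:27337693-27337862; Tgfb2, minus strand, chr1:186705990-186706239.
Ltbp2: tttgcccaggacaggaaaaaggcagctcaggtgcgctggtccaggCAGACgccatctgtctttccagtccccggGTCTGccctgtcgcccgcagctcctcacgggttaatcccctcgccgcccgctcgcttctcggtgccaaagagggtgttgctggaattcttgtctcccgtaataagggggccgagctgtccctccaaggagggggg
Ltbp4: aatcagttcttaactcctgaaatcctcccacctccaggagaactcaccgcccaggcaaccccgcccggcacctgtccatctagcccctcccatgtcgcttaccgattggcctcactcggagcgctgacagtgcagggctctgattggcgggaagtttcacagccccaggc
Tgfb2: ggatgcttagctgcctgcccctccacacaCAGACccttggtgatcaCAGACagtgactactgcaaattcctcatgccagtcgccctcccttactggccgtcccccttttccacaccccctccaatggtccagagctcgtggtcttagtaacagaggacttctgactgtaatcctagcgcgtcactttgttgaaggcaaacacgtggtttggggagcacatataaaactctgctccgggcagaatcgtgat
The Ltbp2 window of 209 bases held 2 matches and the Tgfb2 window of 250 bases held 2, and the Ltbp4 window of 170 bases held 0. Among the 32851 RefSeq promoter windows cut to the same length, 37.1%, 42.2% and 31.8% held at least 1 match on either strand, so a match was common at these lengths. The AP-1 motif TGANTCA and the TEAD motif GGAATG were searched in the same way and had 0 matches in each of the 3 windows. At the lengths of Ltbp2, Tgfb2 and Ltbp4, 5.82%, 6.75% and 4.68% of the RefSeq windows held TGANTCA. For GGAATG the shares were 11%, 12.6% and 9.12%, so 0 matches was the usual outcome for both motifs. Ltbp4 has several annotated starts, of which the most upstream is shown, and 3′ counts do not tell which was used. Of the 10 genes, 8 had a window in the RefSeq table, and Tgfb3 and Tgfbr3 were not among them.

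Ltbp1 and Ltbp3 differed from these and from each other. Ltbp1 stood at 49.4 CPM in MI fibroblast-like cells and 192 CPM in sham, which gave a log2 ratio of -1.96 (-2.11 to -1.80). In endothelial-like cells it stood at 48.2 and 25.9 CPM, for a log2 ratio of 0.90 (0.49 to 1.30). Ltbp3 was near even in fibroblast-like cells (log2 ratio 0.00, and 0.23 with median-of-ratios scaling), with 89.9 CPM in MI (85.6 to 94.4) and 90.1 CPM in sham (79.7 to 102). In endothelial-like cells Ltbp3 stood at 81.7 CPM in MI (70.1 to 94.6) and 8.55 CPM in sham (5.9 to 11.9), for a log2 ratio of 3.26 (2.72 to 3.83), against a fibroblast proportion of 3.92 CPM in MI. Within the macrophage/monocyte-like class Ltbp3 stood at 12.2 CPM in MI (9.8 to 14.9), above the fibroblast proportion of 3.66 CPM, and at 0.91 CPM in sham, from 2 UMIs.

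Counted over the set, 2 of 10 genes were at least 2-fold higher and 4 at least 2-fold lower in MI fibroblast-like cells. Of all 13666 genes compared there, 13.2% were at least 2-fold higher and 20.4% at least 2-fold lower. In macrophage/monocyte-like cells 4 of 10 were higher and 2 lower, where 9.05% and 12% of 11668 genes were. In endothelial-like cells 3 of 9 were higher and 2 lower, where 11.6% and 14.7% of 11660 genes were. In mural-like cells 4 of 8 were higher and 3 lower, where 15.7% and 21.8% of all genes were. In mesothelial-like cells 2 of 8 were higher and 1 lower, where 16.4% and 14.6% were. Among those counted as higher, mural-like Tgfb1 (1.31, -0.70 to 4.44) and Tgfbr1 (1.10, -0.58 to 3.45) had intervals that held 0, from 2 and 3 sham UMIs. So did mesothelial-like Tgfbr1 (1.81, -0.12 to 4.89), from 2 sham UMIs. The median log2 ratio over the set was -0.66 in fibroblast-like cells, 0.60 in macrophage/monocyte-like cells and 0.05 in endothelial-like cells, beside medians of -0.22, -0.11 and -0.04 over all genes compared. Of the 4 genes counted as higher in macrophage/monocyte-like cells, Ltbp2 lay within counting error of the fibroblast proportion and Tgfb3 just above it. The MI level of Ltbp4, counted as lower there, also lay within counting error of its fibroblast proportion. After thinning, 2 of 6 genes with enough UMIs were higher in that class.

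As senders, fibroblast-like cells held most of the Tgfb2 and Tgfb3 UMIs of both libraries. Macrophage/monocyte-like cells held the largest share of the Tgfb1 UMIs in MI, and endothelial-like and macrophage/monocyte-like cells together held most of them in sham. In MI, 50.2% of the 404 Tgfb1 UMIs in gated cells came from macrophage/monocyte-like cells and 31.7% from fibroblast-like cells, although the latter level was only 7.17 CPM. Endothelial-like cells of MI held 8.17% of these UMIs. In sham, 45.6% of 259 came from endothelial-like and 37.5% from macrophage/monocyte-like cells. Of the Tgfb2 UMIs, fibroblast-like cells held 69.4% of 2729 in MI and 75.8% of 327 in sham, and mural-like cells 20.9% and 4.28%. Of the Tgfb3 UMIs, fibroblast-like cells held 86.5% of 4698 in MI and 63.8% of 260 in sham, and endothelial-like cells held 23.8% in sham. These shares follow the number of cells and their depth as well as the level per cell. With every cell thinned to 500 UMIs, macrophage/monocyte-like cells held 76.7% of the MI Tgfb1 UMIs, which is 46 of 60. In sham the order of the Tgfb1 shares then turned, with 50% (36 of 72) in macrophage/monocyte-like and 34.7% (25 of 72) in endothelial-like cells.

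**Figure D3:**
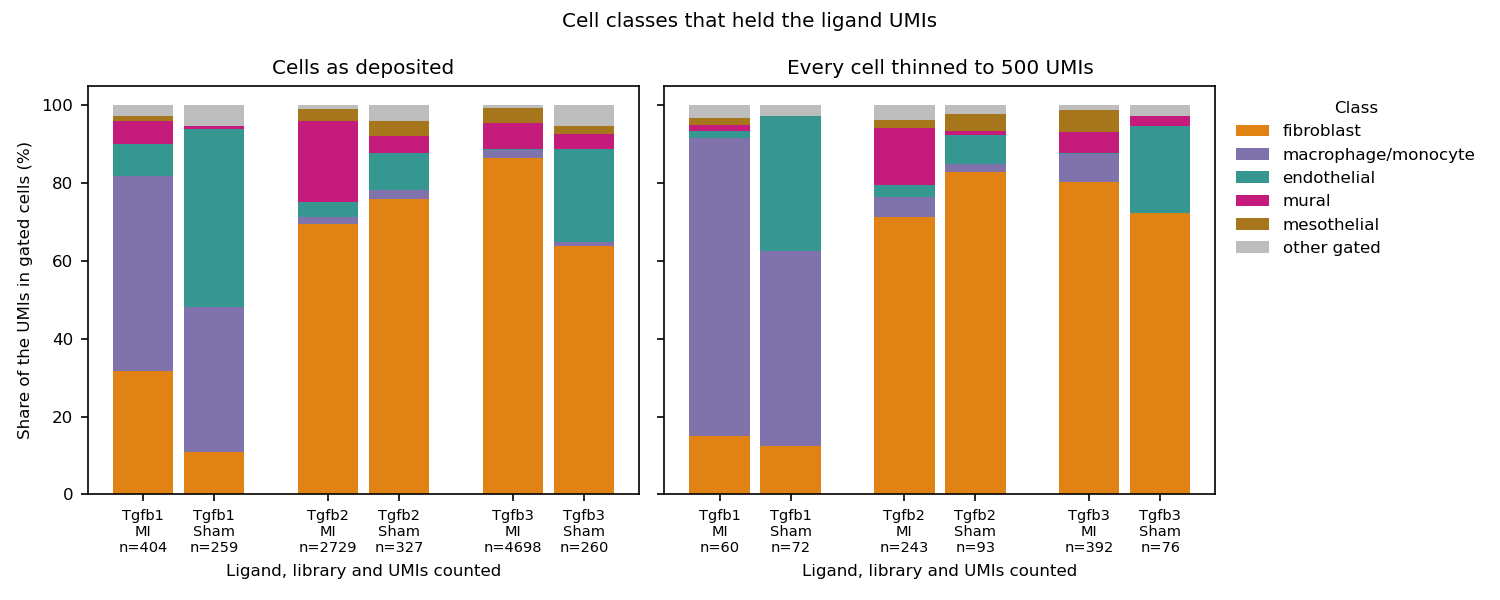
Share of the UMIs of each ligand that lay in each cell class (vertical axis, percent of UMIs in gated cells) for MI and sham, with the number of UMIs under each bar. The left panel uses the cells as deposited and the right panel every cell thinned to 500 UMIs. Fibroblast-like cells made up the larger part of the Tgfb2 and Tgfb3 bars. Macrophage/monocyte-like cells made up the largest part of the Tgfb1 bars in MI, and macrophage/monocyte-like and endothelial-like cells together most of those in sham. As deposited, fibroblast-like cells held 31.7% of the Tgfb1 UMIs in MI.

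As receivers, cells need both kinases, and detection of both in 1 cell was limited by depth. In MI, 146 of 2884 fibroblast-like cells had UMIs of both Tgfbr1 and Tgfbr2, beside 119 if the 2 detections were independent. Among macrophage/monocyte-like cells of MI the numbers were 135 of 3713 beside 120, and in endothelial-like cells 28 of 468 beside 16.6. In sham they were 30 of 1788 beside 32.0, 24 of 1409 beside 28.0, and 13 of 2139 beside 7.59. The part of unequal depth in these counts was not tested. After thinning to 500 UMIs, UMIs of both were detected in 0 of 2884 MI fibroblast-like cells, 10 of 3713 MI macrophage/monocyte-like cells and 0 of 468 MI endothelial-like cells. These counts limit detection at 500 UMIs and not the number of cells that hold both kinases. The numbers under independence were 1.17, 10.2 and 0.374, so an excess of pairs was not detectable at this depth.

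Within the MI fibroblast-like cells the set varied with the contractile program. Cells were ordered by the share of their UMIs from Acta2, Tagln, Cnn1, Actg2, Myl9, Tpm2 and Cald1, genes of the contractile apparatus of myofibroblasts and smooth muscle, and cut into 3 ranges of equal size, which are ranges and not types. From the lowest to the highest range Tgfb2 stood at 80.9, 96.2 and 131 CPM, and Ltbp1 at 38.2, 48.0 and 57.9 CPM. Tgfb3 ran the other way, with 255, 229 and 209 CPM, as did Tgfbr2, with 70.5, 58.4 and 41.4 CPM. Tgfbr3 stood at 42.7, 22.5 and 11.3 CPM and Ltbp4 at 142, 89.0 and 72.7 CPM. Ltbp3 followed with 112, 87.6 and 77.1 CPM. For these 7 genes the intervals of the lowest and highest ranges did not overlap. Tgfbr1 (34.8, 34.9 and 32.6 CPM) and Ltbp2 (249, 243 and 263 CPM) had overlapping intervals. The median depth of the ranges was 4121, 5406 and 6536 UMIs, and its part in these differences was not tested.

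**Figure D4:**
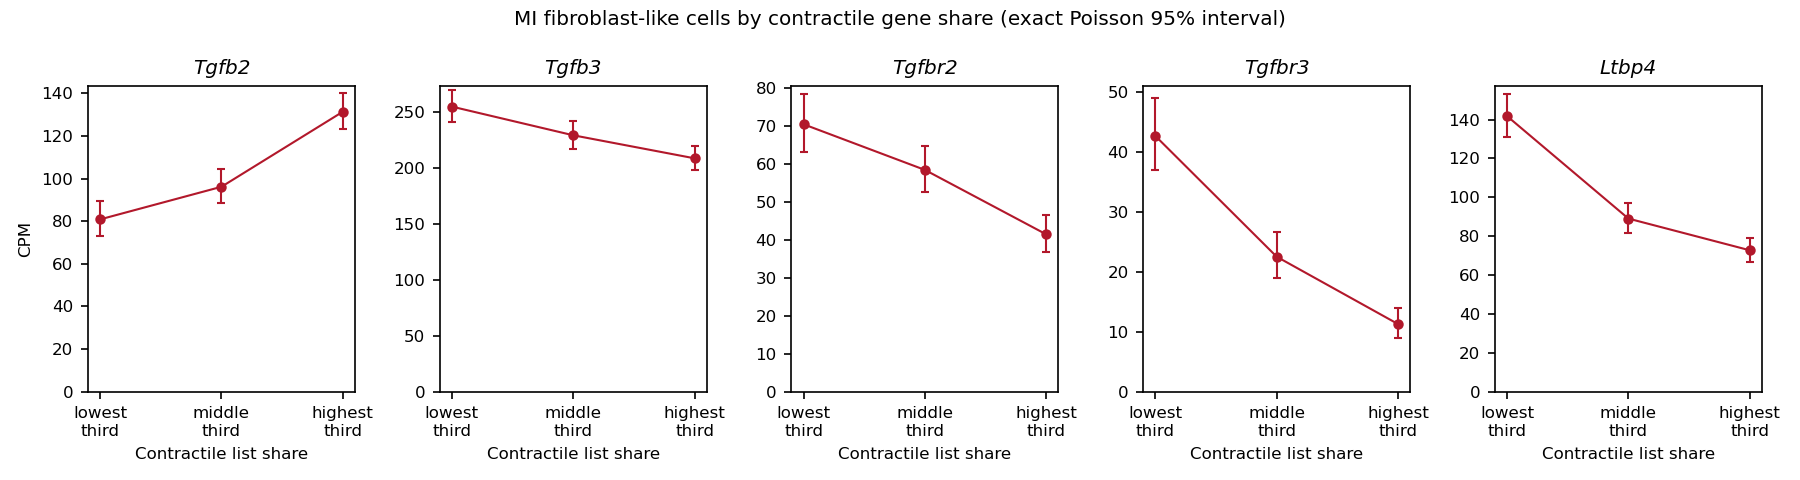
CPM (vertical axis, from 0) of 5 of the 10 genes in 3 equal ranges of MI fibroblast-like cells ordered by their share of contractile gene UMIs. Bars are exact Poisson 95% intervals; Tgfb2 was higher toward the contractile end (80.9 to 131 CPM), and Tgfb3, Tgfbr2, Tgfbr3 and Ltbp4 were lower.

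Other programs ordered the MI fibroblast-like cells differently. By homeostatic fibroblast genes (Pi16, Clec3b, Gsn, Dcn and others), the highest range held more Tgfbr2 than the lowest, 82.0 against 37.1 CPM, more Tgfbr3, 45.0 against 10.3 CPM, and more Ltbp3, 131 against 59.2 CPM. It also held more Tgfb3, 274 against 164 CPM, although this gene was lower in sham, and less Tgfb2, 88.1 against 133 CPM. By cell cycle genes, the 679 cells with the highest share held less Tgfb3 than the 1526 cells with no cell cycle UMI, 145 against 268 CPM, and less Ltbp2, 173 against 288 CPM. The part of unequal depth in the homeostatic and cell cycle orders was not tested. In the sham library, which had few contractile UMIs, none of the 10 genes had intervals apart between the cells with no contractile UMI and those with the highest share. In sham, Ltbp2 was lower toward the homeostatic end, with 24.9, 15.0 and 3.35 CPM from 28, 15 and 3 UMIs.

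Clusters of the same cells, computed without the 10 genes and the pathway genes below, showed where Ltbp2 lay. The largest MI fibroblast-like cluster, of 2066 cells led by Comp and Aspn, held 320 CPM of Ltbp2 and 267 CPM of Tgfb3. A cluster of 465 fibroblast-like cells led by Clu and Saa3, with the mesothelial markers Wt1 and Lrrn4 among its leading genes, held 59.5 CPM of Ltbp2, 33.4 CPM of Ltbp4 and 58.2 CPM of Tgfbr3. A cluster of 309 fibroblast-like cells led by histone genes held 200 CPM of Ltbp2 and 131 CPM of Tgfb3. Few sham cells fell in any of these 3 clusters, so clusters and libraries cannot be told apart for these cells.

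The 2 kinase receptors ran in opposite directions along the states of sham macrophage/monocyte-like cells. Ordered by the share of UMIs from resident macrophage genes (Lyve1, Timd4, Folr2, Cbr2 and others), the lowest, middle and highest ranges held 155, 72.9 and 50.9 CPM of Tgfbr1 and 117, 142 and 185 CPM of Tgfbr2. Ordered by MHC class II genes, which mark antigen-presenting macrophages, the ranges held 55.0, 69.9 and 159 CPM of Tgfbr1 and 191, 144 and 104 CPM of Tgfbr2. In all 4 orders the intervals of the lowest and highest ranges lay apart. The median depths of the ranges lay between 1245 and 1447.5 UMIs.

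In MI the same orders held for Tgfbr1 and in part for Tgfbr2. By MHC class II genes, cells with no such UMI held 172 CPM of Tgfbr1 and 77.5 CPM of Tgfbr2, and the 1028 cells with the highest share held 235 and 47.9 CPM. By resident genes, Tgfbr1 stood at 227 CPM in the 1973 cells with none and 123 CPM in the 870 with most, while Tgfbr2 stood at 62.8 and 71.6 CPM with overlapping intervals. Every one of these MI ranges held more Tgfbr1 than Tgfbr2. Lipid-associated macrophage genes (Spp1, Gpnmb, Trem2 and others) gave even Tgfbr1, at 187 CPM in the lowest and 185 CPM in the highest range, and Tgfbr2 at 52.0 and 78.9 CPM. Tgfb1 had overlapping intervals between the ends of all these orders in both libraries.

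**Figure D5:**
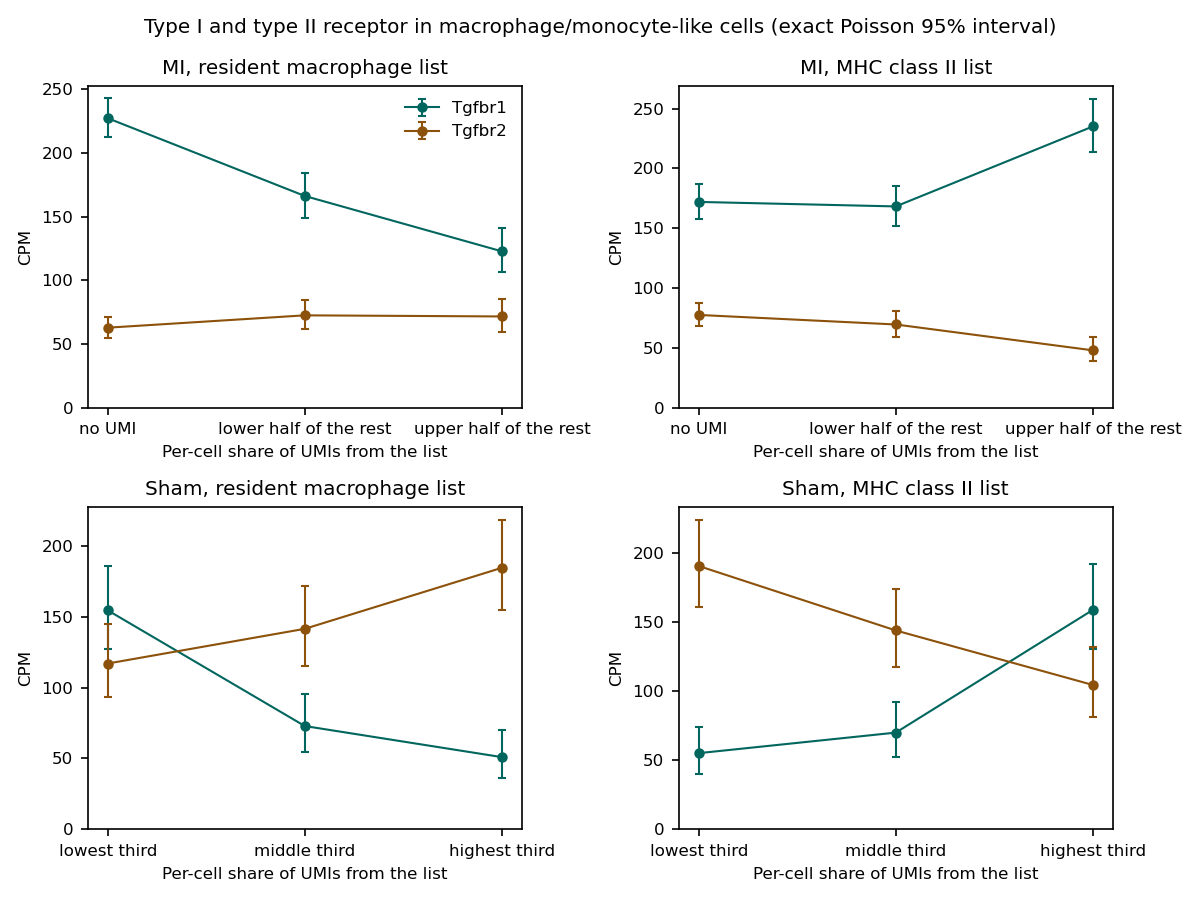
CPM (vertical axis, from 0) of Tgfbr1 (green) and Tgfbr2 (brown) in macrophage/monocyte-like cells of MI (top) and sham (bottom), ordered by the per-cell share of resident macrophage genes (left) or MHC class II genes (right). Bars are exact Poisson 95% intervals; in sham the genes ran in opposite directions in both orders, and in MI Tgfbr1 exceeded Tgfbr2 in every range.

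In endothelial-like cells the clusters of the 2 libraries barely met, and some class-level ratios went with that. A cluster with Npr3, an endocardial gene in the heart, among its leading genes was the only one with at least 50 endothelial-like cells of each library, 217 in MI (46.4% of the class) and 172 in sham (8.04%). Within it Ltbp1 stood at 73.7 CPM in MI and 75.9 CPM in sham, for a log2 ratio of -0.04 (-0.68 to 0.63). The class-level ratio of 0.90 was thus not seen there. Tgfb1 stood at 16.8 and 16.9 CPM, from 21 and 6 UMIs, for a log2 ratio of -0.01 (-1.36 to 1.59). That interval also held the class-level ratio of -0.97, so these counts do not show whether the Tgfb1 difference was absent. Tgfbr2 stood at 137 and 107 CPM, for a log2 ratio of 0.36 (-0.16 to 0.90). Tgfb2 kept its direction with 48.0 and 11.3 CPM, from 60 and 4 UMIs, for a log2 ratio of 2.09 (0.66 to 4.02). Ltbp3 also did, with 128 and 33.8 CPM and a log2 ratio of 1.92 (1.08 to 2.91). Ltbp4 stood at 119 and 788 CPM, for a log2 ratio of -2.72 (-3.02 to -2.43), wider than in the whole class. In the other large MI cluster, 226 cells led by Igfbp3 and Col15a1, Tgfbr2 stood at 158 CPM, Tgfb2 at 48.9 CPM, Ltbp3 at 19.8 CPM and Ltbp1 at 14.0 CPM.

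The mural-like and mesothelial-like values rest on few cells whose class was less clear. By clusters, 158 of the 162 MI mural-like cells fell with fibroblast-like cells, and 100 of the 110 sham ones in a mural cluster. The 10 mural markers summed to 4630 CPM in MI and 20810 CPM in sham, and the fibroblast markers to 8848 and 1121 CPM. Of the mesothelial-like cells, 197 of 202 in MI fell in a cluster named fibroblast, and 78 of 82 in sham in a mesothelial one. A stricter gate gave Tgfb2 in mural-like cells a log2 ratio of 4.22 and Tgfb3 one of 1.58. It left 3 mural-like genes to compare, of which 2 were higher and 1 lower. The part of fibroblast RNA in these ratios was not tested. The MI mural-like level of Tgfb2, 491 CPM, was above the 106 CPM of MI fibroblast-like cells. Without barcodes ending in N, 2 mesothelial-like genes were lower in place of 1.

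The genes around the set were counted from 6 lists, which were chosen with earlier results of these data known. Their counts therefore describe the lists only, and whether they reflect a TGF-beta response was not tested. Of the TGF-beta response genes, 10 of 17 were at least 2-fold higher in MI in fibroblast-like cells, 14 of 16 in macrophage/monocyte-like cells and 12 of 15 in endothelial-like cells, beside 13.2%, 9.05% and 11.6% of all genes. In each class 0 were at least 2-fold lower, beside 20.4%, 12% and 14.7% of all genes. Their median log2 ratios were 2.598, 2.90 and 3.71, beside -0.22, -0.11 and -0.04 over all genes. In fibroblast-like cells Acta2 (smooth muscle actin) stood at 2090 CPM in MI and 6.63 CPM in sham, Tagln at 1125 and 3.98 CPM, and Cthrc1, a secreted collagen triple helix protein, at 1042 and 2.98 CPM. In endothelial-like cells Tgfbi, a secreted matrix protein, stood at 440 and 7.54 CPM and Fn1 (fibronectin) at 1438 and 40.7 CPM, with fibroblast proportions of 2.94 and 124 CPM in MI. Within the macrophage/monocyte-like class the 3 response genes whose intervals lay farthest from 0 were at, close to or below the fibroblast proportion. Col1a1 stood at 315 CPM against 332, Cthrc1 at 37.8 against 42.4 and Lox at 62.6 against 61.9. Cthrc1 and Lox had 0 sham UMIs there, so their log2 ratios were at least 4.79 and 5.52.

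Among genes that release or tether the latent complex the counts were 6 higher and 3 lower of 16 in fibroblast-like cells, 10 and 2 of 16 in macrophage/monocyte-like cells, and 7 and 0 of 15 in endothelial-like cells. All genes gave 13.2% and 20.4%, 9.05% and 12%, and 11.6% and 14.7% in these classes, so that the 3 lower genes in fibroblast-like cells were near the background. Thbs1, thrombospondin, an activator of latent TGF-beta, stood at 1036 CPM in MI and 110 CPM in sham fibroblast-like cells, at 231 and 1.83 CPM in macrophage/monocyte-like cells, and at 322 and 3.77 CPM in endothelial-like cells. The fibroblast proportions in MI were 42.1 CPM and 45.2 CPM in the last 2 classes, so that Thbs1 lay above them. Mmp14, a membrane protease, stood at 275 and 11.9 CPM in macrophage/monocyte-like cells, against a fibroblast proportion of 49.2 CPM in MI. Fbn2, a fibrillin of the fibers that hold Ltbp proteins, stood at 73.3 and 4.97 CPM in fibroblast-like cells, and Fn1 at 2845 and 97.8 CPM. In macrophage/monocyte-like cells Fn1 stood at 331 and 19.2 CPM, and in endothelial-like cells the gelatinase Mmp2 stood at 339 and 14.3 CPM.

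Of the other receptors of the superfamily 1 was higher and 5 were lower of 13 in fibroblast-like cells, where all genes were also more often lower (20.4%) than higher (13.2%). Cd109, a co-receptor that limits TGF-beta signaling, was the one that was higher, at 60.5 CPM in MI and 1.66 CPM in sham. Acvr2b, an activin receptor, stood at 0.78 and 6.30 CPM and Rgmb, a BMP co-receptor, at 9.69 and 59.6 CPM. Among macrophage/monocyte-like cells 2 were higher and 3 lower of 12 (9.05% and 12% of all genes), among them the type I receptors Acvrl1 at 17.0 and 39.2 CPM and Bmpr1a at 4.41 and 16.4 CPM, and Cd109 at 6.28 and 0.91 CPM. In endothelial-like cells 4 were higher and 2 lower of 12 (11.6% and 14.7% of all genes), with Bmpr1a at 63.8 and 11.8 CPM, Cd109 at 50.5 and 15.8 CPM and Acvr2a at 24.8 and 75.9 CPM.

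The counts of SMADs and their regulators were small. Of 17 in fibroblast-like cells 1 was at least 2-fold higher and 4 lower, of 16 in macrophage/monocyte-like cells 2 were higher and 0 lower, and of 17 in endothelial-like cells 3 were higher and 1 lower. Over all genes the shares were 13.2% and 20.4%, 9.05% and 12%, and 11.6% and 14.7%, so that the 4 lower genes in fibroblast-like cells and the 2 higher ones in macrophage/monocyte-like cells were near the background. Smad3, which carries the signal from Tgfbr1, stood at 5.49 CPM in MI and 26.5 CPM in sham fibroblast-like cells, for a log2 ratio of -2.27 (-2.71 to -1.83). Ski, a repressor of SMAD targets, stood at 59.7 and 133 CPM, and Zfyve9, which presents Smad2 and Smad3 to the receptor, at 19.6 and 47.7 CPM. Within the macrophage/monocyte-like class the inhibitory Smad7 stood at 18.4 and 6.85 CPM, the feedback gene Pmepa1 at 134 and 50.2 CPM and the repressor Tgif1 at 80.1 and 40.6 CPM, each above its fibroblast proportion in MI. In endothelial-like cells Pmepa1 stood at 262 and 48.0 CPM, Tgif2 at 7.80 and 1.51 CPM and Zfyve9 at 30.8 and 62.3 CPM.

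Among other ligands of the superfamily, 3 were higher and 5 lower of 11 in MI fibroblast-like cells, beside 13.2% and 20.4% of all genes. Bmp2 stood at 0.50 CPM in MI and 36.1 CPM in sham, Bmp4 at 7.84 and 117 CPM and Gdf10 at 1.29 and 7.62 CPM. In macrophage/monocyte-like cells 4 were higher and 1 lower of 5 (9.05% and 12% of all genes). The stress-induced Gdf15 stood at 39.3 and 5.48 CPM, Bmp1 at 12.95 and 3.65 CPM and Bmp2 at 6.28 and 32.9 CPM. Bmp1, a procollagen protease despite its name, is counted among these 4 although it is not a ligand. In endothelial-like cells 5 were higher and 0 lower of 7 (11.6% and 14.7% of all genes), with Bmp4 at 131 and 36.5 CPM, Gdf6 at 82.2 and 1.006 CPM and the activin subunit Inhbb at 33.5 and 2.77 CPM. Bmp4 thus ran in opposite directions in the fibroblast-like and endothelial-like classes, a difference that was not tested.

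Extracellular binders and antagonists were 6 higher and 3 lower of 13 in fibroblast-like cells, 7 and 0 of 9 in macrophage/monocyte-like cells, and 7 and 2 of 11 in endothelial-like cells. The shares of all genes were again 13.2% and 20.4%, 9.05% and 12%, and 11.6% and 14.7%, and the 3 lower binders in fibroblast-like cells were near the background. The proteoglycans Dcn (decorin) and Fmod (fibromodulin), which both bind TGF-beta, differed in opposite directions in fibroblast-like cells. Dcn stood at 2047 CPM in MI and 15801 CPM in sham, and Fmod at 97.0 and 0.99 CPM, the latter from 3 sham UMIs. Fst (follistatin), which binds activins, stood at 115 and 17.6 CPM. Among macrophage/monocyte-like cells Bgn stood at 79.2 and 17.3 CPM, Fstl1 at 237 and 26.9 CPM and Aspn at 42.9 and 8.21 CPM, while their fibroblast proportions in MI were 65.2, 214 and 49.3 CPM. The part of fibroblast RNA in the count of 7 of 9 in this class was not tested. In endothelial-like cells Bgn stood at 756 and 120 CPM, Fstl1 at 2174 and 192 CPM, and Sost, an antagonist best known from bone, at 162 and 4.53 CPM.

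The genes whose pattern was most like each of the 10 were ranked by Pearson correlation of log2(CPM + 10) over 13 sums of a class in a library, among 11357 genes. The sums share libraries and depths, so the values describe this table only. Ltbp2 was most like Col11a1 (r = 0.93), C1qtnf3 (0.93) and Cthrc1 (0.90), and Ltbp4 like Prrc2b (0.96), Tenc1 (0.96) and Sptbn1 (0.95). Tgfb2 was most like Dnajb4 (0.95), Loxl2 (0.89) and Pebp1 (0.88). Loxl2, a collagen crosslinking enzyme, was also the nearest to Tgfb3 (0.92), followed by Dnpep (0.91) and RP23-103I12.13 (0.91). Tgfbr1 was most like Tnfsf9 (0.95), Sowahc (0.92) and Engase (0.91), Tgfbr2 like Fam63b (0.93), Sord (0.93) and Dapk1 (0.89), and Tgfbr3 like Pard3b (0.93), Timp3 (0.90) and Ackr3 (0.90). For Tgfb1 they were Rap1b (0.90), St6galnac4 (0.88) and Cbx8 (0.87), for Ltbp1 Thsd7a (0.92), Klhl26 (0.91) and Kcnt2 (0.89), and for Ltbp3 Ahnak2 (0.91), Scd2 (0.91) and Tmem9 (0.91).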

How the data were processed

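Drop-seq UMI counts were analysed for the MI library and the sham library as deposited, in 1 table of genes by cell barcodes each. The labels do not state how the counts were made from the reads. Per the submitters' processing notes, the genome build was mm10 and the tool Seurat; the sources used here name no aligner, counting program or annotation. Per the labels' protocols, libraries had 12 PCR cycles in the tagmentation step. The protocols also describe paraformaldehyde fixation and a rule that left out mice by the gradient at a constricted aorta, without saying how either relates to single cells of infarcted hearts. The MI table held 8555 barcodes with 33275336 UMIs and that of sham had 6337 barcodes with 11307405; 5 barcodes were in both.

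Barcodes with over 25% mitochondrial UMIs were removed (114 MI, 34 sham), and so were doublets called by scrublet in scanpy 1.11.5 (147 and 332). Each cell was placed in the class with the highest mean scaled marker level, where at least 2 markers were detected and the lead over the next class was at least 1.2-fold. This scoring rule was chosen after seeing the data. The lead was under 1.5-fold in 316 MI and 190 sham cells that entered a class. Of fibroblast-like, macrophage/monocyte-like and endothelial-like cells, 99.2%, 97.2% and 97.5% took the same class from clusters (leidenalg 0.10.2, resolution 0.8, 2000 variable genes without the 10 genes and the pathway lists) named by the same markers; of mural-like and mesothelial-like cells 36.8% and 27.5% did. The 5 classes with at least 50 cells per library were compared.

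UMIs were summed over the cells of a class and divided by the class total to give CPM, with exact Poisson intervals of 95%. Ratios of MI to sham were taken on the log2 scale, with exact intervals from the binomial split of a gene's UMIs, and genes with at least 20 UMIs in a class over both libraries were compared. Where a library had 0 UMIs, its count was set to 3 over the class, which makes the ratio a bound. All genes were processed alike. Shares have exact Clopper-Pearson intervals. UMIs carry molecular identifiers, but intervals and bounds cover counting error only and not differences between hearts. The ratio step was tested on simulated data. The alternatives were classes from clusters, a stricter gate, doublets kept, no mitochondrial limit, no barcodes ending in N, median-of-ratios scaling, a mean over cells, thinning to 500 UMIs and no minimum of UMIs; the ratios within the shared endothelial cluster were added after seeing the data. The 10 genes, the pathway and state lists and the markers were chosen with earlier results of these data known. In each pathway list and class, the 3 genes whose interval had its nearer bound farthest from 0 were named, except 1 gene that is not reported here. For each of the 10 genes, the 3 genes of highest correlation were named.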

Additional observations from a re-analysis of the deposited data

Results flagged for a closer look

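For 4 genes, log2 ratios of MI over sham ran in opposite directions in 2 of the main classes, with both intervals away from 0. The difference between the classes was not tested, since each group was 1 library. Tgfb3 had a ratio of -1.39 in endothelial-like cells, 2.05 in the fibroblast-like class and 3.15 in the macrophage/monocyte-like class; in macrophage/monocyte-like cells its MI level of 12.2 CPM lay near the fibroblast proportion of 9.27 CPM. Tgfbr1 had a ratio of 1.02 in macrophage/monocyte-like and -0.94 in fibroblast-like cells. Tgfbr2 had a ratio of 1.42 in endothelial-like cells, -1.37 in the fibroblast-like class and -1.14 in the macrophage/monocyte-like class. Ltbp1 had a ratio of 0.90 in endothelial-like and -1.96 in fibroblast-like cells. Within the endothelial cluster with Npr3 among its leading genes, the ratios of Tgfbr2 and Ltbp1 were 0.36 and -0.04, with intervals that held 0. The ratio of Tgfb3 there was -0.81 (-2.71 to 1.37), from 8 and 4 UMIs, which also held 0.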

How the results depend on the processing

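No paired analysis was possible because each group was 1 library, and no replicate could be left out. The 45 log2 ratios of the genes in 5 classes were recomputed with the other settings, which gave 366 values. Of these, 0 at least 2-fold ratios changed direction, 335 stayed within the counting interval and 31 left it. Dropping the minimum of UMIs cannot change a ratio, so its 45 values, counted among the 335, were the same by construction. Median-of-ratios scaling shifts all ratios of a class by a constant; the shift taken off was -0.24 on the log2 scale in fibroblast-like, -0.12 in macrophage/monocyte-like and -0.16 in mural-like cells. Thinning to 500 UMIs moved 13 of the 27 ratios that had enough UMIs left. It also gave 2 genes higher in macrophage/monocyte-like cells in place of 4, and 1 lower in endothelial-like cells in place of 2, as did the mean over cells (1); the cause was not tested. The macrophage/monocyte-like share of MI Tgfb1 was 55.4% with a stricter gate, 74.2% as a mean over cells and 76.7% thinned, and the endothelial-like share of sham Tgfb1 34.7% thinned. The fibroblast-like share of MI Tgfb2 was 93.8% by clusters, which place the MI mural-like cells with the fibroblasts, 77.2% with a stricter gate, 67.4% as a mean over cells and 71.2% thinned, and that of sham Tgfb2 83.1% with a stricter gate and 82.8% thinned. The fibroblast-like share of MI Tgfb3 was 97.6% by clusters, 91.4% with a stricter gate, 84.3% as a mean over cells and 80.4% thinned, and that of sham Tgfb3 72.4% thinned. In the endothelial cluster that both libraries shared, added after seeing the data, Tgfb1 had a log2 ratio of -0.01 (-1.36 to 1.59, from 21 and 6 UMIs). Tgfbr3 had one of -0.60 there and Ltbp4 one of -2.72. Low counts limit Tgfb1 in fibroblast-like cells (28 sham UMIs) and all values of the mural-like class in sham, whose class total was 240798 UMIs.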
